A study of Homo sapiens with 9 samples.

Results

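The comparison of PF846 with DMSO covered every transcript in the deposited table for that compound, 8839 of the 9221 that the deposited tables of the study list in all. Ribosome profiling, which sequences the mRNA fragments that ribosomes shield from nuclease, was done on Huh-7, a line of human hepatocellular carcinoma cells. Cells received 1.5 μM PF846 (PF-06446846) or 0.5% DMSO for 1 hr, with 3 libraries in each group, so 6 of the 9 libraries of the study belong here. The other 3 libraries came from cells given PF8503, a related compound, at 1.5 μM for 1 hr. All groups shared the cell line, the treatment time and cycloheximide in the rinse and lysis buffers.

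A ribosome builds a protein from its N-terminus, and the growing chain passes through an exit tunnel in the large ribosomal subunit before it reaches the cytosol or the translocon of the endoplasmic reticulum (ER). PF846 belongs to a class of small molecules that bind in this tunnel and slow the ribosome on particular nascent chains. Proteins bound for the ER usually open with a hydrophobic signal peptide or membrane anchor, whose codons are translated early, and liver cells make such proteins in bulk for the blood plasma.

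For each transcript the value used was the log2 ratio of the authors' mean with PF846 to the authors' mean with DMSO, in read counts normalised between libraries. A ratio below 0 means fewer footprints with PF846. The table gives 1 mean per group, so depth per library is unknown, no replicate error or test can be given, and the words higher and lower compare 2 means. In footprint counts alone, fewer mRNA copies and fewer ribosomes on each copy cannot be told apart. The library names place the DMSO libraries in sequencing lanes 1, 1 and 5 and the PF846 libraries in lanes 2, 2 and 6, so lane and treatment cannot be told apart either. The labelled cell type was checked against its markers. All 21 hepatocyte markers were in the table, with DMSO means from 449 to 194937 normalised counts, and of the 21 markers of leukocytes, fibroblasts, endothelium and cholangiocytes 7 were in it. Those present were CD68 and LYZ of leukocytes (814 and 7112 counts with DMSO), LUM of fibroblasts (78) and PECAM1 of endothelium (156). EPCAM, KRT19 and SOX9, 3 of the 4 cholangiocyte markers, were present too, with 267 to 3315 counts. The part of these 7 in the results was not tested. PTPRC and CD3E of leukocytes, COL1A1 and DCN of fibroblasts, and CDH5 and VWF of endothelium had no row.

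Most of the translatome differed little between PF846 and DMSO. The median log2 ratio over the 8839 transcripts was 0.00086, and the central 95% ran from -0.23 to 0.22. A total of 6461 transcripts (73.1%) lay within 0.1 of 0, and 8228 (93.1%) within 0.2. Beyond a log2 ratio of 0.5, the size taken here as a clear shift, 35 transcripts were lower with PF846 (0.396% of all) and 7 were higher (0.0792%). At 0.3 the counts were 99 lower (1.12%) and 78 higher (0.882%), and at 1 they were 11 lower (0.124%) and 0 higher. The larger the shift, the more the count leaned to the lower side. Among transcripts with no difference in counted region, explained below, 9 were lower and 7 higher by 0.5. The 35 lower transcripts held 0.473% of all normalised counts with DMSO and 0.228% with PF846.

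The 5 transcripts with the highest means, and ACTB, lay within 0.1 of 0. GAPDH, the glycolytic dehydrogenase, had means of 72134 with DMSO and 72171 with PF846. ALB, which encodes serum albumin, had 135807 and 130463, a log2 ratio of -0.06. AFP, the fetal plasma protein alpha-fetoprotein, had the highest mean in the table, with 194937 and 183325 and a log2 ratio of -0.09. EEF1A1, which brings aminoacyl-tRNA to the ribosome, stood at 0.03 and APOB, the structural protein of very low density lipoprotein, at 0.07. ACTB, cytoplasmic actin, stood at -0.07.

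The spread depended on how many reads a transcript had. In the lowest decile of transcripts by mean, with 42.8 to 98.4 normalised counts, the central 95% of log2 ratios ran from -0.31 to 0.34. In the highest decile, from 2176 counts up, it ran from -0.13 to 0.12. With no replicates to set an error, these ranges serve below as a description of how far transcripts of like abundance usually lay from 0. Of the 35 lower transcripts 28 had a mean of at least 100 counts, while of the 7 higher ones only 4 did.

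**Figure D1:**
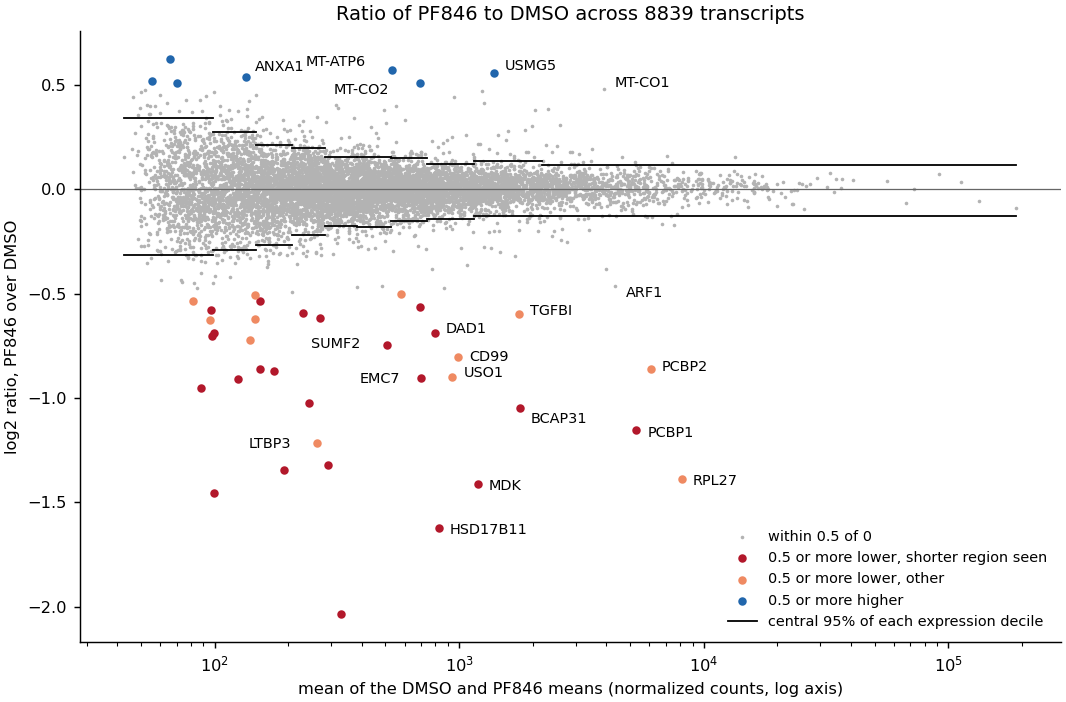
Log2 ratio of PF846 to DMSO (vertical axis) against the mean of both conditions in normalised counts (horizontal log axis), 1 point per transcript for all 8839, with the 35 lower transcripts in red and orange, the 7 higher in blue, and black lines at the central 95% of each decile of transcripts ordered by mean. The band narrows from about -0.31 to 0.34 at low counts to -0.13 to 0.12 at high counts, and RPL27, PCBP1 and PCBP2 lie far below it among the most abundant transcripts.

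The lower transcripts were examined through the part of each protein that is translated early. A segment was counted as hydrophobic where the mean Kyte-Doolittle hydropathy of 19 residues reached 1.6, and as N-terminal where the window ended by residue 40. The starts of 6 coding sequences with such a segment are shown because these transcripts are discussed below. They were read from GENCODE version 44 on GRCh38, 5′ to 3′, with the codons of the most hydrophobic 19 residues in capitals.
HSD17B11: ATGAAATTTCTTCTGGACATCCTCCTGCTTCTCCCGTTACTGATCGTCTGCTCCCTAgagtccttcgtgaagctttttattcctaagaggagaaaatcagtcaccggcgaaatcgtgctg
MDK: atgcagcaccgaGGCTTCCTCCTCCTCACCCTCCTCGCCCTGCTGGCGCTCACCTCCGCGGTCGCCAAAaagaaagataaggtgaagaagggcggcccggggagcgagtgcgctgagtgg
BCAP31: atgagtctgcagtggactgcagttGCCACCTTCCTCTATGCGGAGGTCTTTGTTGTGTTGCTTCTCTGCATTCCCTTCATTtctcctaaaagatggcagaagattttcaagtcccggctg
EMC7: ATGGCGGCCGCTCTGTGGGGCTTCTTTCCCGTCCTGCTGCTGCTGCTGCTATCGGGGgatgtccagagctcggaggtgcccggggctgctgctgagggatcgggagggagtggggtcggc
CD99: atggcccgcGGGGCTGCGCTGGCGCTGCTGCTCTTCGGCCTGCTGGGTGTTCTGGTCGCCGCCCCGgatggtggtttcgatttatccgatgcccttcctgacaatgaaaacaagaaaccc
TGFBI: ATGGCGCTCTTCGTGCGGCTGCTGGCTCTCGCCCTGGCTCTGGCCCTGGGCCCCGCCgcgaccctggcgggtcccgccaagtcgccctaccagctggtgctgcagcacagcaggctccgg
The first coding exon of HSD17B11 is chr4:87390861-87391070 on the minus strand, that of MDK chr11:46382058-46382133 on the plus strand, and that of BCAP31 chrX:153723153-153723244 on the minus strand. Those of EMC7, CD99 and TGFBI are chr15:34101604-34101839 (minus), chrX:2691361-2691427 (plus) and chr5:136029056-136029189 (plus). The mean hydropathy of the marked residues ran from 2.01 in MDK to 2.36 in HSD17B11.

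An N-terminal hydrophobic segment was found in 14 of the 35 lower transcripts, 40% (95% Wilson interval 25.6% to 56.4%), against 874 of the 8768 transcripts with a protein class, 9.97%. Seen from the side of the class, 14 of 874 were lower by 0.5 or more, 1.6% (0.957% to 2.67%). Of the 6071 transcripts with no hydrophobic segment, 15 were lower, 0.247% (0.15% to 0.407%), and of the 1823 whose segments all came later, 6 were, 0.329% (0.151% to 0.716%). The intervals cover counting of transcripts only, and they take no account of error between libraries. The share was 25% (16% to 36.8%) of the 64 transcripts between -0.5 and -0.3. It was 29.2% (14.9% to 49.2%) of the 24 between -1 and -0.5 and 63.6% (35.4% to 84.8%) of the 11 at -1 or lower. The intervals of these bins overlap. Between -0.3 and -0.2 it was 11.3% of 222, and above 0.3 it was 8.82% of 68.

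**Figure D2:**
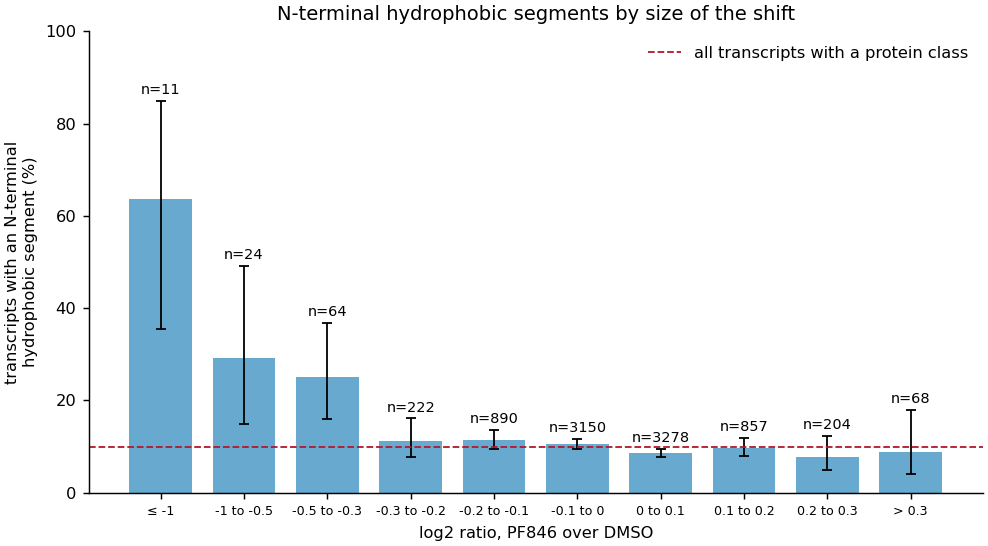
Share of transcripts whose protein has an N-terminal hydrophobic segment (vertical axis, percent, bars from 0) in bins of the log2 ratio of PF846 to DMSO (horizontal axis), with 95% Wilson intervals and the number of transcripts per bin, and the share over all transcripts as a dashed line. The share lies near 10% from -0.3 upward and reaches 63.6% of the 11 transcripts at -1 or lower.

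The class as a whole barely moved. Its median log2 ratio was -0.01, and 488 of the 874 (55.8%) were below 0, beside 49.7% of all transcripts. The median was 0.00 for later segments and 0.00 for none, with 48.2% and 49.3% below 0. Proteins with many membrane passes had a median like that of the rest: the 253 with 7 or more hydrophobic segments stood at 0.00. Of these, 0 were lower by 0.5, but 253 are too few to differ from the 0.396% of all transcripts. Most transcripts that open with a hydrophobic stretch thus lay in the same narrow range as the rest.

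Leucine was frequent in the starts of the lower proteins. Residues 2 to 40 of the 35 held a mean of 7.97 leucines, beside 4.05 over all 8767 proteins long enough to count. Among the 14 with an N-terminal segment the mean was 10.9, beside 7.3 over the whole class, and among the 15 without any segment it was 5.67, beside 3.54. Aspartate and glutamate together were fewer, with a mean of 2.54 in the 35 and 4.48 over all. Within the N-terminal class they were not fewer, with 2.36 in the 14 and 2.14 over the class. Among proteins without any segment the means were 3.07 in the 15 and 4.85 over all of that class. Lysine and arginine together had means of 4.26 in the 35 and 4.77 over all.

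How the reads were counted differed between transcripts. For transcripts in which footprints of treated and control cells parted clearly along the message, the authors summed only reads 3′ of that point, so that the ratio reads ribosomes that had passed it. In all others the sum covered nearly the whole coding sequence. The same DMSO libraries enter the PF846 and the PF8503 table, and the DMSO means of the 2 tables stood in 1 constant ratio (1.09) for 8641 of the 8775 transcripts in both. In 42 transcripts the PF846 table held fewer DMSO reads than this ratio gives, and a shorter region was therefore counted for PF846. These 42 include 23 of the 35 lower transcripts and had a median log2 ratio of -0.57. In the 23, the region kept between 47.3% and 99.7% of the DMSO reads counted in the other table, with a median of 90.3%. Of the other 12 lower transcripts, 9 showed no difference in region (RPL27, LTBP3, PCBP2, CD99, MRPL45, PDK1, TGFBI, ACSF3 and PROSER1), and 3 (USO1, POGLUT1 and PODXL2) were counted over less of the message in the PF8503 table. A region shortened alike in both tables cannot be seen this way. Since the point of parting was located on the same reads, a region shortened for PF846 favours a low ratio by its construction. Without the 23 transcripts 12 of the 35 are left, and with no difference in region of either kind 9. Among transcripts with no difference in region, 3 of the 822 with an N-terminal segment were lower by 0.5 or more, 0.365% (0.124% to 1.07%), beside 5 of the 5965 with no segment, 0.0838% (0.0358% to 0.196%). Both rates were thus below those over all regions, 1.6% and 0.247%, and the intervals of the 2 classes overlap. At 0.3 or more lower, 16 of the 822 were counted, 1.95% (1.2% to 3.14%). Beside them stood 39 of the 5965 with no segment, 0.654% (0.479% to 0.892%), and these intervals do not overlap.

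Among the lower transcripts, 8 encode proteins grouped here under the ER and Golgi, between -1.05 and -0.54. These groups were made after the values were seen and have no count over all transcripts, so they order the description only, and HSD17B11, also found at the ER, is described with other membrane proteins. BCAP31, an ER membrane protein that helps to export and to check other membrane proteins, went from 2391 normalised counts with DMSO to 1155 with PF846, 48.3% of the DMSO mean. EMC7, a subunit of the ER membrane protein complex that inserts membrane proteins, went from 910 to 487, a log2 ratio of -0.90. USO1, the tether that holds transport vesicles to the Golgi, went from 1222 to 656 (-0.90). Transcripts of like abundance had central 95% ranges no wider than -0.15 to 0.15. DAD1, a small subunit of the oligosaccharyltransferase, went from 985 to 611 (-0.69), with 77.1% of the reads of its PF8503 region counted. SUMF2 and SUMF1, the pair of ER proteins of which SUMF1 activates sulfatases, stood at -0.74 and -0.59. POGLUT1, which puts glucose on Notch and other proteins, and TOR1B, an ATPase of the ER lumen, were lower at -0.62 and -0.54, both with DMSO means under 200 counts.

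Among secreted proteins, 4 growth and matrix factors were lower. MDK, the heparin-binding growth factor midkine, went from 1740 to 653 counts, 37.5% of its DMSO mean and a log2 ratio of -1.41. MST1, which encodes macrophage-stimulating protein, went from 417 to 167 (-1.32). LTBP3, a binding protein for latent TGF-beta, went from 367 to 158 (-1.22). TGFBI, a matrix protein induced by TGF-beta, went from 2115 to 1399 (-0.60). These 4 belonged to a list of 24 measured matrix and growth factor transcripts (0.396% of all transcripts were lower, and the list was chosen with earlier results known), of which the other 20 lay between -0.09 (VEGFA) and 0.16 (TIMP3). The list therefore split into 4 transcripts far below 0 and 20 close to it, with a median over all 24 of 0.02. LTBP1, the one other LTBP in the table, stood at 0.13.

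HSD17B11, a short-chain dehydrogenase of the ER and lipid droplets, was among the lowest of all. Its mean was 1246 counts with DMSO and 404 with PF846, a log2 ratio of -1.62, where the central 95% of transcripts of like abundance ran from -0.14 to 0.12. The 5 other HSD17B transcripts in the table lay between -0.04 and 0.01. The region counted for HSD17B11 held 96.4% of the DMSO reads of its PF8503 region.

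At the cell surface, CD99, a glycoprotein of cell adhesion, went from 1260 to 721 counts (-0.81), and LRP8, a receptor for apolipoprotein E and reelin, from 116 to 59.8 (-0.95). The 8 other LRP transcripts lay between -0.10 and 0.15. PODXL2, a sialomucin, stood at -0.50. TM2D3 and BRI3BP, both membrane proteins, stood at -1.35 and -1.02. In the lysosome, PLA2G15, a phospholipase, went from 146 to 53.3 counts (-1.45). Of 52 lysosomal transcripts, a list that also held both SUMF genes, 4 were lower by 0.5 or more, again beside 0.396% of all, and the other 48 lay between -0.32 (GRN, progranulin) and 0.13 (HEXA, a subunit of beta-hexosaminidase).

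**Figure D3:**
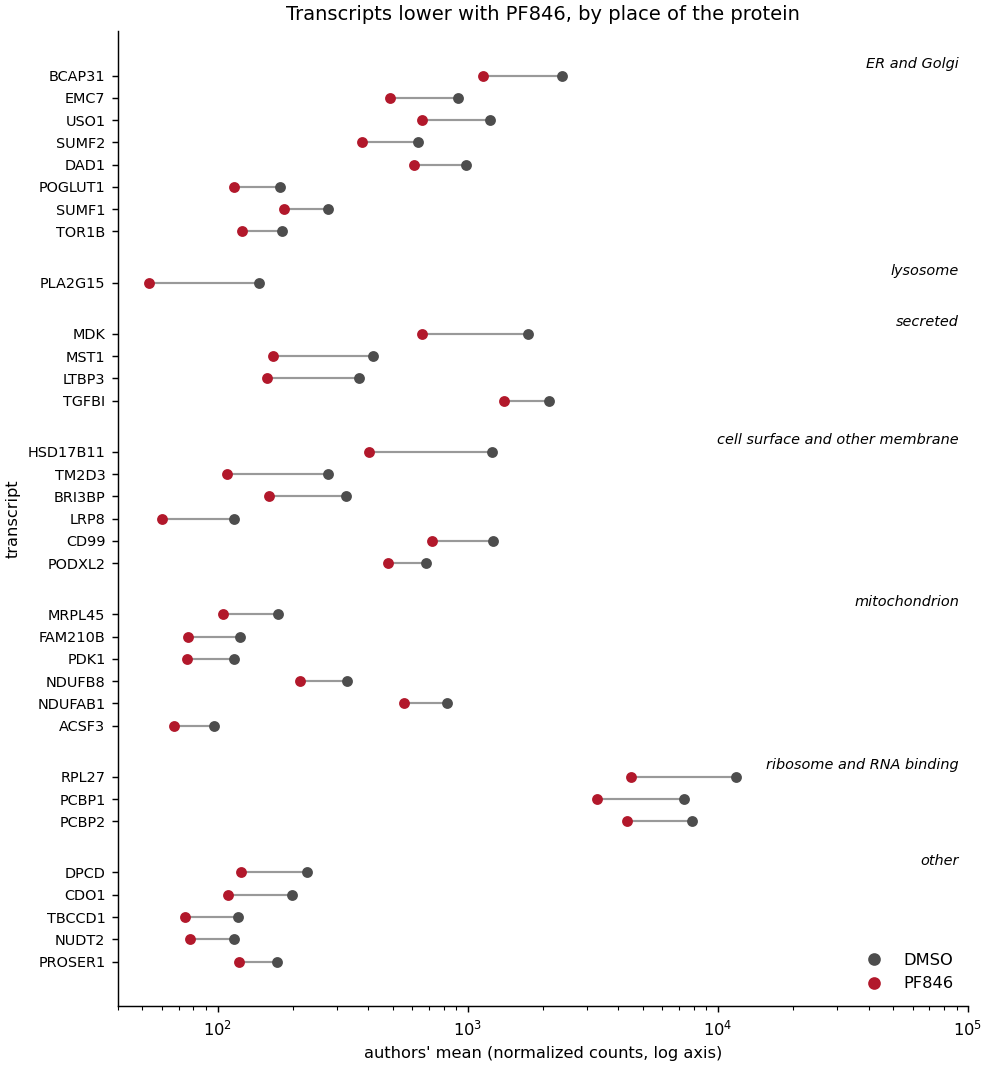
The authors' means with DMSO (grey) and PF846 (red) in normalised counts (horizontal log axis) for the lower transcripts described in the text, grouped by the place of the protein. The DMSO means run from 96.9 (ACSF3) to 11761 (RPL27), and the PF846 mean lies to the left in each.

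The most abundant of the lower transcripts, RPL27, PCBP1 and PCBP2, encode no hydrophobic segment. RPL27, a protein of the large ribosomal subunit, went from 11761 counts with DMSO to 4488 with PF846, a log2 ratio of -1.39. PCBP1 and PCBP2, RNA-binding proteins that attach to runs of C and carry iron to client proteins, went from 7316 to 3289 (-1.15) and from 7849 to 4314 (-0.86). RPL27, PCBP1 and PCBP2 together accounted for 62.9% of the counts that the 35 lower transcripts lost. The starts of the PCBP1 and PCBP2 coding sequences are shown because the pair are close relatives. Capitals mark codons that give the same amino acid in both.
PCBP1: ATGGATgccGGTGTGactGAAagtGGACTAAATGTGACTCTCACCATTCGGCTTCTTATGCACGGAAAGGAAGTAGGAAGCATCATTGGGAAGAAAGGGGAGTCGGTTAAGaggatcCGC
PCBP2: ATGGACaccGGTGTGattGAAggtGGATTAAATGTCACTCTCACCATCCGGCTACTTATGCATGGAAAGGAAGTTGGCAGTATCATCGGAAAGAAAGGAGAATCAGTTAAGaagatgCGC
RPL27: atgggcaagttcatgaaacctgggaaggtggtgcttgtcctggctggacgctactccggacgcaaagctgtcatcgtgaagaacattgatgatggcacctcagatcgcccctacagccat
PCBP1 and PCBP2 have the same amino acid at 35 of their first 40 positions and the same base at 101 of 120. PCBP1 has a single coding exon, chr2:70087744-70088811 on the plus strand, and the first coding exon of PCBP2 is chr12:53454801-53454869 on the plus strand. RPL27, whose first coding exon is chr17:42998751-42998831 on the plus strand, is given for contrast with the hydrophobic starts above: its highest 19-residue mean hydropathy within the first 40 residues was 0.87. The authors left out reads with more than 1 position, and how many PCBP1 and PCBP2 lost in this way was not tested. PCBP4, a more distant member, stood at -0.08 (713 and 674 counts), and HNRNPK, which has the same type of RNA-binding domain, at 0.06 (13895 and 14520).

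RPL27 was the 1 ribosomal protein beyond 0.5. The other 48 large-subunit transcripts lay between -0.20 (RPL39) and 0.18 (RPL39L), with a median of 0.00, and the 30 small-subunit transcripts between -0.13 (RPS15A) and 0.16 (RPS21). In some other lists, too, 1 transcript lay well below the rest. The proteasome, CCT and small-subunit lists had no member beyond 0.5, beside 0.396% of all transcripts lower and 0.0792% higher. EMC7 stood at -0.90, while the other 36 transcripts for signal recognition, translocon and membrane insertion lay between -0.19 (SSR4) and 0.10 (SEC61A2). DAD1 stood at -0.69, while the other 10 oligosaccharyltransferase transcripts lay between -0.07 (OST4) and 0.09 (TMEM258). The catalytic subunits STT3A and STT3B were at 0.00 and 0.02, and RPN1, RPN2 and DDOST at -0.01, -0.03 and -0.03. OSTC and MAGT1 stood at -0.05 and -0.04, and KRTCAP2 at 0.07. USO1 stood at -0.90 among 91 transcripts for vesicle coats and tethers, whose next lowest was ARF1, the GTPase that recruits the COPI coat, at -0.46 with 5016 counts against 3638.

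Several lower transcripts encode mitochondrial proteins made in the cytosol. MRPL45, a protein of the mitochondrial ribosome, went from 174 to 105 counts (-0.72), while the other 74 mitochondrial ribosomal proteins lay between -0.12 and 0.28. NDUFB8, a complex I subunit, stood at -0.62 (328 and 213 counts) and NDUFAB1, the mitochondrial acyl carrier protein that is also part of complex I, at -0.57 (827 and 558). For NDUFB8 and NDUFAB1 67.1% and 47.3% of the DMSO reads of the PF8503 region were counted. NDUFC2, another complex I subunit, was just short of the threshold at -0.47. PDK1, which inhibits pyruvate dehydrogenase, and ACSF3, a malonyl-CoA synthetase, stood at -0.62 and -0.54 with DMSO means of 116 and 96.9 counts. The central 95% range at that abundance was -0.31 to 0.34. FAM210B stood at -0.69. The remaining lower transcripts described here, CDO1 (cysteine dioxygenase), DPCD, TBCCD1, NUDT2 (a nucleotide hydrolase) and PROSER1, ran from -0.87 to -0.51 and had DMSO means between 116 and 227 counts.

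The threshold of 0.5 had no gap in the values around it. Just inside it on the lower side were PODXL2 (-0.50), PROSER1 (-0.51) and ACSF3 (-0.54), and just outside were SLC17A5, a lysosomal sialic acid transporter, at -0.49, PAG1 at -0.48 and IGF2BP2, an RNA-binding protein, at -0.47. On the higher side MT-CO2, SRCAP and PORCN were just inside (0.51, 0.51 and 0.52), and MT-CO1, ZFP30 and HIST2H2BF just outside (0.48, 0.47 and 0.47).

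Another threshold took the spread at each abundance into account and was set after the values had been seen. A transcript was counted where it lay 4 robust SDs or more from the median of its decile by mean. This threshold, called the second threshold below, gave 53 lower (0.6%) and 25 higher (0.283%) transcripts. In 24 of the 53 the region counted was shortened for PF846, which favours a low ratio by its construction. The spread of each decile came mostly from transcripts with no difference in region, so these 24 are set against an unlike measure. Of the 53, 31 were among the 35 above, and 22 were smaller shifts, from -0.49 to -0.19. ARF1, GPR107 (-0.47), PLOD3, a collagen lysyl hydroxylase (4514 and 3458 counts, -0.38), the transcription factor ETS2 (-0.37) and GRN (-0.32) were of this kind. Also among them were CFI, complement factor I, at -0.25, AHSG, the plasma protein fetuin A, at -0.23, and SSR4, a translocon-associated subunit, at -0.19. PDK1, NUDT2, ACSF3 and PROSER1 no longer counted.

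On the higher side, the transcripts encoded in mitochondrial DNA stood out as a group. All 13 had a log2 ratio above 0, from 0.15 (MT-ND6) to 0.57 (MT-ATP6), with a median of 0.38. The cytochrome oxidase subunits MT-CO1, MT-CO2 and MT-CO3 had 3277, 571 and 1782 counts with DMSO and 4567, 812 and 2320 with PF846, log2 ratios of 0.48, 0.51 and 0.38. MT-CYB of complex III went from 1087 to 1447 (0.41). The ATP synthase subunits MT-ATP6 and MT-ATP8 went from 428 to 636 and from 327 to 414 (0.57 and 0.34). The 7 complex I subunits ranged from 0.15 to 0.40, with MT-ND1 and MT-ND2 at 0.40 and 0.39, MT-ND3 at 0.31, MT-ND4 and MT-ND5 at 0.22 and 0.21, and MT-ND4L at 0.17. In summed counts the group went from 0.119% to 0.154% of the table. By the second threshold 8 of the 13 were higher, beside 0.283% of all transcripts.

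Partners encoded in the nucleus had medians near 0. The list of 38 measured subunits of complexes I and II, which left out NDUFAB1, had a median of -0.01. The list for complexes III, IV and V, also 38, had a median of 0.02. The 75 mitochondrial ribosomal proteins, which build the ribosome that translates the 13, had a median of -0.01. USMG5, a small membrane subunit of ATP synthase, was the 1 member of these lists higher by 0.5, at 0.55 (1121 and 1647 counts), beside a highest value of 0.23 among the other 37 subunits of its list. NDUFB8 and MRPL45 of these lists, and NDUFAB1 outside them, all described above, were lower. COX6C, of complex IV, was lowest in the list for complexes III, IV and V at -0.28.

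**Figure D4:**
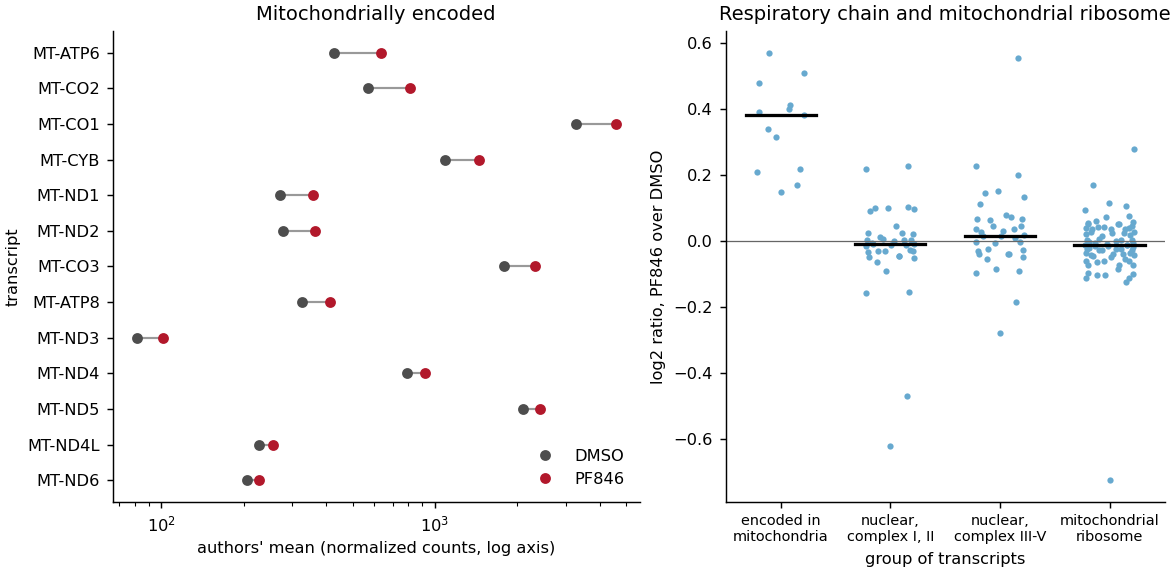
Left, the authors' means with DMSO (grey) and PF846 (red) in normalised counts (horizontal log axis) for the 13 mitochondrially encoded transcripts. Right, log2 ratio of PF846 to DMSO (vertical axis) for these transcripts, the nuclear-encoded respiratory chain subunits and the mitochondrial ribosomal proteins, with bars at the medians (0.38, -0.01, 0.02 and -0.01): each of the 13 lies above 0.

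Histones had the highest median among the other lists of at least 5 transcripts, with a share above 0 like that of several lists below. The 65 measured histone transcripts had a median of 0.05, with 43 above 0. By the second threshold 8 were higher, all H2B or H2A genes, beside 0.283% of all transcripts. The 17 H2B transcripts had a median of 0.18, with HIST2H2BF at 0.47 (1038 and 1437 counts), HIST1H2BN at 0.44 (807 and 1096) and HIST1H2BD at 0.30 (2324 and 2870). HIST1H2BJ went the other way, at -0.30, with 54.5% of the DMSO reads of its PF8503 region counted. H2A, H3, H4 and H1 transcripts had medians of 0.09, 0.02, 0.01 and -0.04. Histone genes of 1 type are near copies of each other and reads with more than 1 position were dropped, so each single value rests on what was left and is uncertain. The summed H2B counts went from 27502 to 29692, a log2 ratio of 0.11, which was smaller than the median over the genes.

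The other transcripts higher by 0.5 had few reads. ZNF16, a zinc finger protein, had 51.6 and 79.5 counts (0.62), PORCN, which acylates Wnt proteins, 45.7 and 65.5, SRCAP, a chromatin remodelling ATPase, 58 and 82.6, and ANXA1, annexin A1, 110 and 159 (0.54). The central 95% at that abundance reached 0.28 to 0.34. Better covered transcripts that were higher, though short of 0.5, were AHNAK, a giant scaffold protein (2004 and 2612 counts, 0.38), PTP4A1, a tyrosine phosphatase (479 and 630, 0.40), MAN2B2, an alpha-mannosidase (430 and 558, 0.38) and the transcription factor ZFHX3 (0.30). PTP4A2 stood at 0.03.

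Gene lists for liver function and the secretory pathway had medians slightly below 0. The lowest belonged to the genes of cholesterol synthesis and uptake, with a median of -0.05 over 30 transcripts and 23 below 0, from -0.23 (INSIG2, which holds the sterol sensor in the ER) to 0.12 (C14orf1). ER chaperones and the unfolded protein response had a median of -0.04, with 31 of 41 below 0, and ranged from -0.30 for the stress kinase EIF2AK3 to 0.24 for TMX1, an ER thioredoxin. Plasma transport proteins and serpins stood at -0.03, with 25 of 31 below 0, and coagulation, fibrinogen and complement proteins at -0.03, with 20 of 27 below 0. Apolipoproteins stood at -0.04, from -0.28 (APOC3, which inhibits lipoprotein lipase; 497 and 408 counts) to 0.07 (APOB). Over all transcripts 49.7% were below 0. No member of the lists named in this paragraph was lower by 0.5, beside 0.396% of all transcripts. Other lists for liver function and the secretory pathway held such members, namely HSD17B11, EMC7, DAD1 and USO1, described above. Differences of a few hundredths cannot be told from error between libraries here. The summed counts of the plasma proteins went from 4.77% to 4.58% of the table.

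Most lists for the nucleus and cytosol lay at or slightly above 0, and cytosolic heat shock proteins were at -0.01, with 18 of 33 below 0. Splicing factors and hnRNP proteins had a median of 0.02, with 43 of 128 below 0, and cell cycle and DNA replication proteins also 0.02, with 19 of 48 below 0. The chaperonin CCT, whose 8 subunits fold actin and tubulin, lay between -0.01 (CCT8) and 0.05 (CCT7). Zinc finger proteins of the ZNF series had a median of 0.03 over 166 transcripts, with 1 higher by 0.5, ZNF16. Proteasome subunits, glycolytic enzymes and tricarboxylic acid cycle enzymes had medians of 0.00, 0.01 and 0.01. Of their transcripts 0 lay beyond 0.5, beside 0.396% of all lower and 0.0792% higher.

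Genes that respond to blocked translation and stress showed no shift beyond 0.5. Of all transcripts 0.396% were lower and 0.0792% higher by 0.5, so lists of this size would hold few if any. The 29 integrated stress response genes had a median of -0.02 and ranged from -0.30 (EIF2AK3) to 0.12 (SLC3A2, an amino acid transporter subunit). Factors of ribosome rescue and nascent chain quality control, 27 transcripts, had a median of 0.03 and ran from -0.12 (XRN1, the main cytoplasmic exonuclease) to 0.13 (GTPBP2). Immediate-early and short-lived regulators had a median of -0.01, with the lowest value at -0.31 for ATF3, a stress-induced transcription factor (191 and 154 counts). JUNB, another immediate-early factor, stood at -0.30 with 590 and 481 counts, which was lower by the second threshold. Initiation factors, elongation and termination factors and aminoacyl-tRNA synthetases had medians of 0.00, 0.02 and 0.02.

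**Figure D5:**
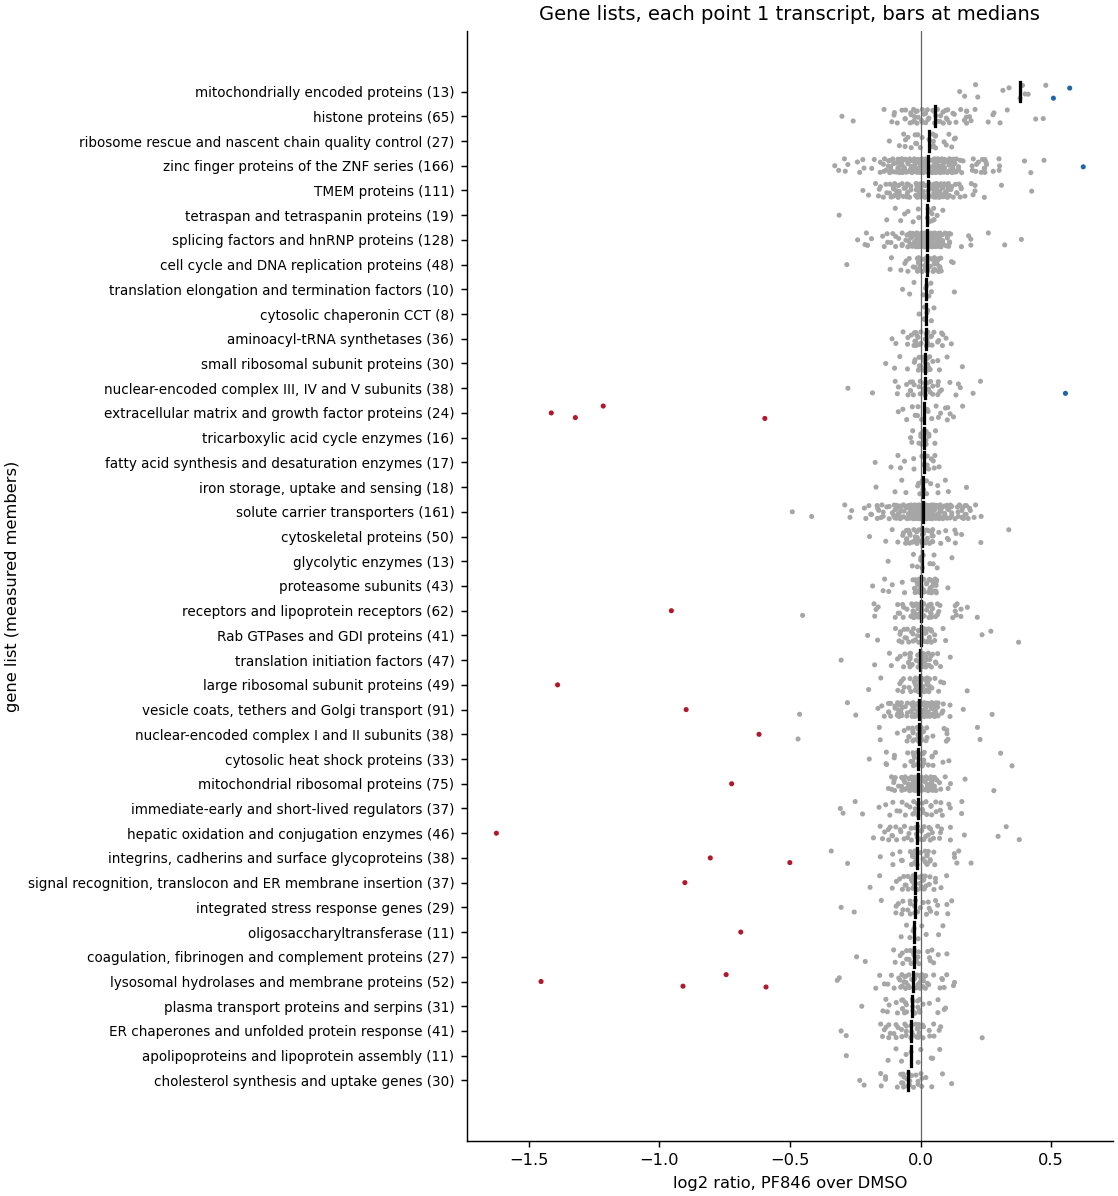
Log2 ratio of PF846 to DMSO (horizontal axis) for the members of each gene list with at least 5 measured transcripts (rows, number measured in brackets), ordered by the median (black bar), with members at -0.5 or lower in red and at 0.5 or higher in blue. Mitochondrially encoded transcripts lie apart with a median of 0.38, and the other medians lie between -0.05 and 0.05. Several lists hold a single red point. The matrix and growth factor list and the lysosomal list hold 4 each, and the list of integrins, cadherins and surface glycoproteins holds 2.

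The longest transcripts had slightly higher ratios. The shortest decile, with 37 to 182 codons, had a median of 0.00, with 51.1% below 0. The decile of transcripts with 183 to 254 codons had a median of -0.01, with 57.5% below 0, and the decile with 1219 codons or more had a median of 0.03, with 38.9% below 0. The longest transcripts had a higher median than the shortest at low, middle and high abundance. Among the more abundant transcripts the median went from 0.00 at up to 254 codons to 0.02 from 870 codons, and among the least abundant from -0.02 to 0.01. Differences of this size cannot be told from error between libraries here. The lower transcripts had a median of 336 codons, beside 474 over all, and 14 of the 35 had under 300 codons, 40%, beside 25.6% of all.

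The PF8503 table was made with the same DMSO libraries, so its values are not independent of those above and are given side by side with no comparison. The counted regions of HSD17B11, MDK and PCBP1 also differed between the tables. HSD17B11 stood at -1.62 with PF846 and 0.08 with PF8503, RPL27 at -1.39 and -0.98, and MDK at -1.41 and -2.65. PCBP1 stood at -1.15 and -1.92, and PCBP2 at -0.86 and -1.43. MT-ATP6 stood at 0.57 and -0.19, and MT-CO1 at 0.48 and -0.37.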

How the data were processed

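Ribosome-protected fragments of the PF846 and DMSO libraries were compared through the deposited table of the pair. Per the methods, the authors trimmed reads (FASTX toolkit), discarded those matching ribosomal RNA, and used Bowtie for alignment to canonical coding transcripts of GRCh38, where only reads with 1 position were kept. Versions of Bowtie and DESeq are not given in the sources used here. Reads were summed 3′ of the point of greatest divergence where that point passed the score set by the authors, and otherwise over the coding sequence without its ends, and transcripts with few counts were dropped. The deposited signal values used here are, for each condition, the authors' mean of counts after division by DESeq size factors. The deposited columns of fold or ratio, of log2 values and of p-values hold the authors' own comparisons and were not used. The replicate numbers in the supplementary scripts of the study differ from those of the labels, so which libraries entered the table is not certain.

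Computed here were the log2 ratio of the 2 deposited means with no pseudocount, shares with 95% Wilson intervals, robust SDs (1.4826 times the median absolute deviation) in 10 classes of mean, and protein classes from GENCODE version 44, which named 8800 of the 8839 transcripts (8379 by symbol and 421 by synonym). A region was called shorter beyond 0.002 on the log2 scale. With 1 mean per condition no test was run. The steps were tested on simulated data. The transcripts, the 43 gene lists and the thresholds were chosen with earlier results of these data known, and places in the cell were assigned after the values were seen. Named were the 15 lowest and 15 highest transcripts with a mean of at least 100, the lowest and highest of each list, abundant transcripts, the mitochondrially encoded, oligosaccharyltransferase and poly(C)-binding transcripts and those beside the threshold. The remaining transcripts beyond 0.5, the families by symbol and those past the second threshold were named after their values were seen. Some results are not reported here. Alternatives covered the fold, the minimum mean, pseudocounts, centring, scaling to the same total, the counted region, the definition of the segment and the summary of a list. Python 3.11.15, numpy 2.4.6, pandas 2.3.3 and matplotlib 3.10.9 were used.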

Additional observations from a re-analysis of the deposited data

How the results depend on the processing

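No paired analysis was possible because the table holds 1 mean per condition and no value of a single library, and for the same reason no library could be left out. The count of 35 lower transcripts became 99 at a fold of 0.3, 11 at a fold of 1, 9 among transcripts with no shortened region seen and 53 by the second threshold. The count of 7 higher transcripts became 78 at a fold of 0.3, 0 at a fold of 1, 4 with a mean of at least 100, 4 with a pseudocount of 10 and 25 by the second threshold. It stayed at 7 where no shortened region was seen. With a pseudocount of 1, centring, scaling to the same total or 1 row per gene symbol, counts stayed at 34 or 35 lower and 7 higher. The share of the lower transcripts with an N-terminal segment was 40%, 63.6% (7 of 11) at a fold of 1, and between 30.3% and 48.6% under the other alternatives, including a window of 12 residues chosen after the values were seen. It was 33.3% (3 of 9) where no shortened region was seen. Of 46 list and class medians, 30 kept their sign in all alternatives run for them and 16 changed it in at least 1, all of those with a median within 0.04 of 0. The coagulation and apolipoprotein lists were among the 16, at 0.01 and 0.02 in the ratio of summed means. Depth per library is unknown, so differences below the spread at each abundance cannot be resolved.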
